A study of Mus musculus with 9 samples.

Results

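The cytosolic ribosomal protein genes encode the protein parts of the ribosomes that translate nuclear messages. They were taken here as the rows with the symbol Rpsa, Rplp0, Rplp1 or Rplp2, or with Rpl or Rps followed by digits, leaving out Rps3a, Rps6k, -ps symbols and symbols ending in l. Transcript rows were summed per gene and a mean of at least 200 counts over all libraries was required, which left 81 of 33641 genes: 49 of the large subunit and 32 of the small subunit. Of 82 candidates only Rps27rt missed the limit, at a mean of 11.7 counts, and the members just inside it were Rpl27 at 205, Rps19bp1 at 326 and Rpl12 at 383. The rule did not use any difference between groups. It also admitted 5 genes named as paralogs, retrocopies or binding partners (Rpl22l1, Rpl7l1, Rps12l1, Rpl37rt and Rps19bp1), and it left out ribosomal proteins with other names, such as Fau and Rack1. Subunits were assigned by symbol alone, so these 5 are held in the subunit counts and sums. Rps12l1 and Rpl37rt had most of their counts on transcripts annotated as pseudogenes.

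The libraries came from untreated mice aged 7.5 months, 3 of each genotype: wild type (WT), PG9V and PG9VN, from a study of a mouse model of neuronopathic Gaucher disease, a lysosomal storage disease that affects the brain. The labels only name the lines; as general background, both mutant lines lack progranulin (Grn) and carry further alleles that are not named here, of which PG9VN has a null allele that PG9V lacks. Tissue was a dissected piece of brain described as holding thalamus, hypothalamus and midbrain, and poly(A) RNA was sequenced from each mouse separately. Sex, strain, litter and batch are not among the labels, and strain background and genotype cannot be told apart.

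Each ribosome joins a small subunit, which reads the message, to a large subunit, which forms the peptide bonds. Their proteins are made in matched amounts, and most of the messages begin with a run of pyrimidines (the terminal oligopyrimidine tract) through which the kinase mTOR and the binding protein Larp1 set their translation and stability. Free large subunit proteins such as Rpl5 and Rpl11 bind Mdm2, the ubiquitin ligase of p53, when ribosome assembly is disturbed. These genes are short and have many processed pseudogenes, which makes their reads hard to place.

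A start of this kind is shown here for 6 members, picked from the 20 in which a run was found by the rule below. The RefSeq promoter table of build GRCm38.p6 held 60 of the 81 members, in 70 windows of 250 bases before to 50 bases after an annotated start. The lines give 30 bases before and 20 bases after the start, 5′ to 3′ on the gene's strand, with the pyrimidine run in capitals. Rplp2 lies at chr7:141447621-141447670 on the plus strand, Rpl13a at chr7:45128726-45128775 on the minus strand and Rpl35 at chr2:39005112-39005161 on the minus strand. Rpl38 lies at chr11:114668550-114668599 on the plus strand, Rps6 at chr4:86857348-86857397 on the minus strand and Rps18 at chr17:33955646-33955695 on the minus strand.
Rplp2: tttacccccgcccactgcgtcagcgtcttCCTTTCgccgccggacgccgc
Rpl13a: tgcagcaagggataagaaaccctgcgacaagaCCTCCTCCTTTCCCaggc
Rpl35: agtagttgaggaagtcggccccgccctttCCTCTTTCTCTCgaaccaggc
Rpl38: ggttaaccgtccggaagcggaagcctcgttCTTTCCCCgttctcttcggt
Rps6: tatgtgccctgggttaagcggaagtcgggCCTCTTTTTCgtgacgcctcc
Rps18: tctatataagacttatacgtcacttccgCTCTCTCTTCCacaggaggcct

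A run was counted where a C within 2 bases of the annotated start was followed by C or T only, for at least 5 bases in all. It was found in 21 of the 70 windows, belonging to 20 members, and in 8.96% of all 32851 windows in the table. Starts annotated a few bases off would be missed, so the share is a description of these windows. The letters CCGGAAG, the core bound by ETS-family factors, were present on either strand in 34.3% of the members' windows and 8.86% of all windows. The YY1 letters AAGATGGC were present in 11.4% against 2.75%, and the SP1 letters GGGCGG in 61.4% against 35.7%. The reverse of the ETS letters, CTTCCGG, begins with a pyrimidine run, so 1 stretch can count for both, as at Rpl34. A match says nothing of binding.

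Total estimated counts were 27150500 to 35349217 per library. PG9VN replicate 2 (mouse 76) stood apart in its regional markers. Its 10 hypothalamus markers summed to 9.8 CPM (counts per 1000000, scaled by the trimmed mean of M values). The other PG9VN libraries had 370 and 534, and WT had 158 to 197. Hcrt, which marks hypothalamic orexin neurons, was at 0.07 CPM there. Its 8 cortex and hippocampus markers summed to 1698 CPM, where all other libraries had 489 to 721. Its 8 midbrain markers summed to 5.0 CPM, where PG9VN replicates 1 and 3 had 72.0 and 26.9. WT had 102 to 108 and PG9V 72.4 to 112, so all 3 PG9VN libraries lay below WT. The 8 thalamus markers summed to 688 to 797 CPM in WT, 516 to 545 in PG9V and 383, 256 and 259 in PG9VN. Of these, 6 were called lower in PG9VN than in WT by edgeR (adjusted p under 0.05), as were 7.22% of all genes. WT replicate 1 and PG9V replicate 2 held 214 and 191 counts of 4 Y-linked genes, against 3852 to 5904 elsewhere. Fold changes of the named members are given with PG9VN replicate 2 and, where it moved them, without it. Values with copies added are given only with it.

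Ribosomal protein messages took a larger part of the RNA in every mutant library than in any WT library. Their summed level was 9761, 9755 and 9786 CPM in the WT libraries, 11978, 12869 and 10594 in PG9V, and 11614, 18862 and 12710 in PG9VN. The WT libraries lay within a narrow band, all 6 mutant libraries lay above it, and PG9VN replicate 2 was the highest. The group means were 9767 ± 16.5 CPM in WT, 11814 ± 1146 in PG9V and 14396 ± 3907 in PG9VN (SD, n = 3). This was 1.47-fold higher in PG9VN than in WT (exact two-sided permutation test, p = 0.1) and 1.21-fold higher in PG9V than in WT (exact p = 0.1). PG9VN was 1.22-fold above PG9V, with overlapping libraries (exact p = 0.5). With 3 libraries a group, 0.1 is the smallest p this test allows, so none of these differences could pass 0.05. On the log2 scale the rise in PG9VN over WT was 0.56 with all libraries and 0.31 without PG9VN replicate 2, and PG9VN over PG9V went from 0.29 to 0.05 without it.

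**Figure D1:**
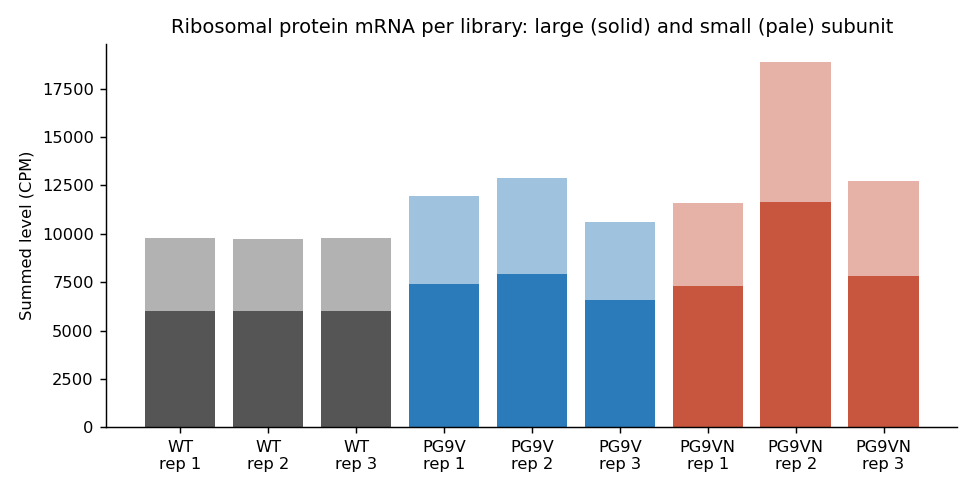
Summed level of the 81 ribosomal protein genes in each library, in CPM (y axis, from 0), with the 49 large subunit genes as the solid part and the 32 small subunit genes as the pale part of each bar. The WT bars reach 9755 to 9786 CPM, the PG9V bars 10594 to 12869, and PG9VN replicate 2 reaches 18862.

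Both subunits moved together. In WT, PG9V and PG9VN the large subunit genes summed to 5990 to 6038, 6569 to 7925 and 7312 to 11660 CPM. The small subunit genes summed to 3746 to 3771, 4025 to 4944 and 4302 to 7202 CPM. The log2 ratio of large to small was 0.68 ± 0.010 in WT, 0.69 ± 0.013 in PG9V and 0.72 ± 0.043 in PG9VN (SD, n = 3). PG9VN and WT differed by 0.036 in that ratio (exact two-sided permutation test, p = 0.2), and the sign turned when reads on near-identical copies were added to each member (-0.034, exact p = 0.1). Within the members' transcripts, those annotated as protein coding took 89.95% to 90.6% of the counts in every library, and retained introns 3.05% to 3.33%.

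Gene by gene, 51 of the 81 members were higher in PG9VN than in WT and 0 were lower by edgeR's quasi-likelihood test at a Benjamini-Hochberg adjusted p under 0.05. Over all 17398 genes tested, 11.5% were called higher and 7.22% lower. The 51 were 31 of 49 large subunit genes and 20 of 32 small subunit genes. At an unadjusted p under 0.05 the test gave 74 higher (18.7% of all genes) and 0 lower (14.3%). DESeq2 called 65 higher and 0 lower and limma-voom 41 and 0, for which the shares of all genes are not given here. Log2 fold changes had a median of 0.59 against 0.02 for all genes tested, with quartiles of 0.49 and 0.69 among the members, and the called members ran from 0.44 to 0.87. For 74 members all PG9VN libraries lay above all WT libraries, as for 20.3% of all genes, and for 0 members they lay below, as for 17.2%.

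The count of calls changed with the libraries in the fit. Leaving out WT replicate 1, 2 or 3 gave 2, 7 and 5 calls, and leaving out PG9V replicate 1 gave 29. There were 0 in the 7 libraries with Y-linked counts, where 61 members had an unadjusted p under 0.05 and the median was 0.60. Shares of all genes called are not given here for these fits, so the changes cannot be read as particular to the members. Without PG9VN replicate 2, 54 members were higher and 0 lower (13.4% and 11.4% of 17639 genes), with 66 higher (19.5%) and 0 lower (18%) at the unadjusted threshold, and the median fell to 0.36.

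**Figure D2:**
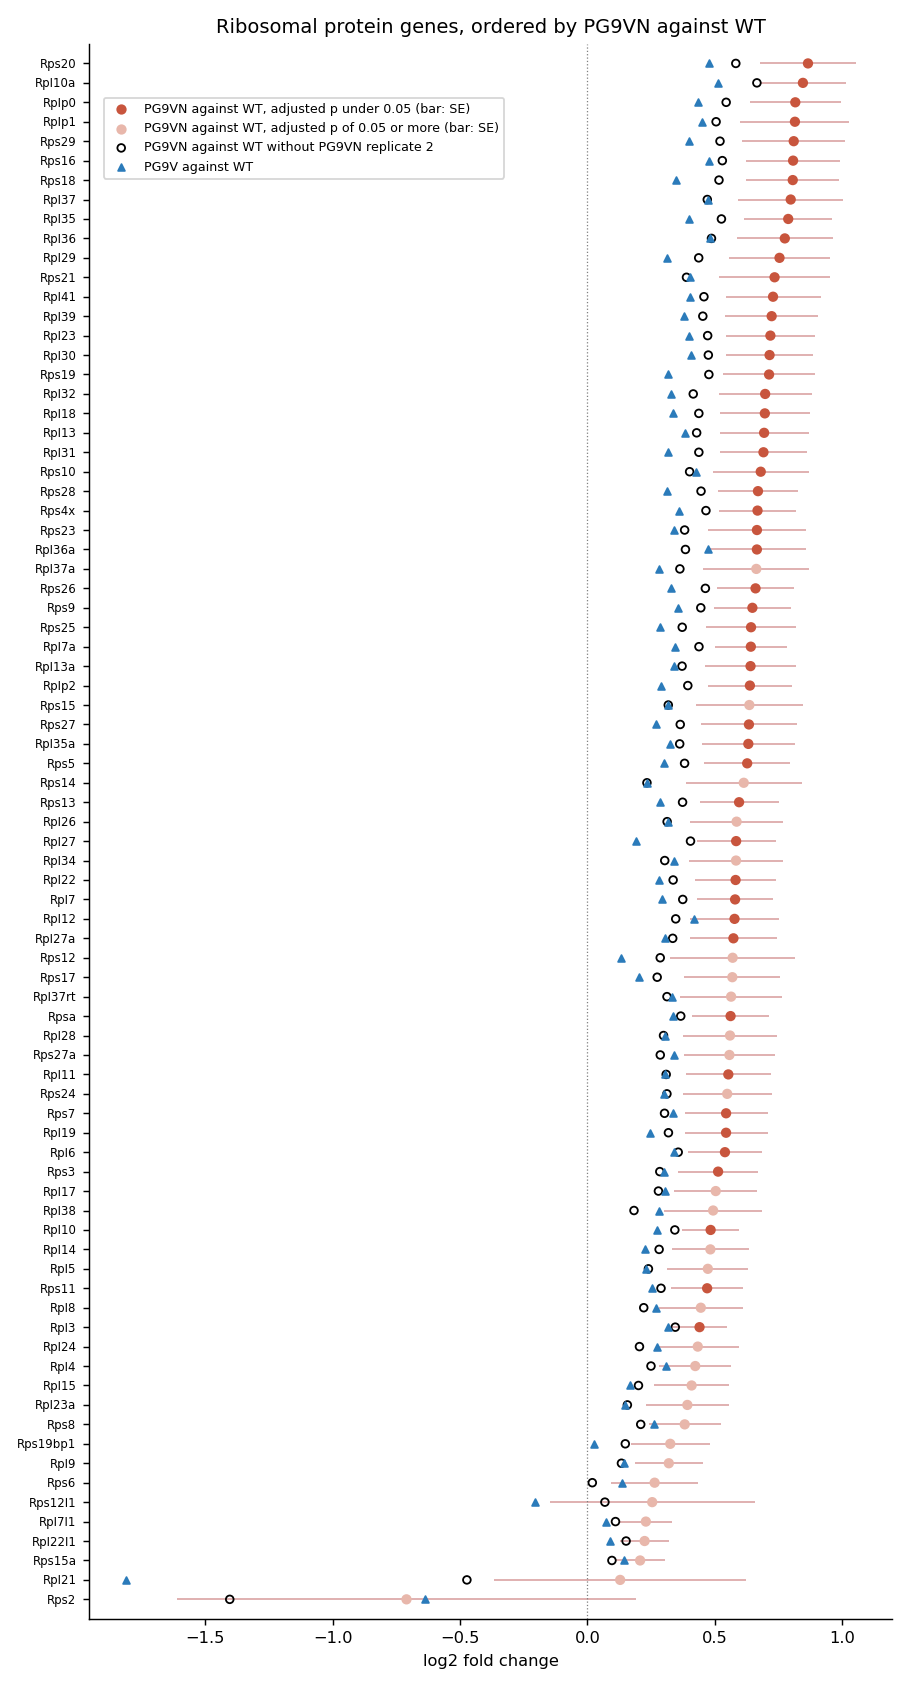
Log2 fold change (x axis) of the ribosomal protein genes (y axis, ordered, 1 member not drawn), for PG9VN against WT with its SE and, as open circles, without PG9VN replicate 2, and for PG9V against WT as triangles. Nearly all points lie right of 0, and the open circles and triangles lie left of the filled circles for most members; Rps2 and Rpl21 stand apart.

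Rplp0 and Rplp1 of the ribosomal stalk were among the members with the largest differences. Rplp0, the base of the stalk that draws elongation factors to the large subunit, stood at 138, 134 and 133 CPM in WT, 190, 192 and 165 in PG9V, and 188, 318 and 207 in PG9VN. All mutant libraries were above all WT libraries, with PG9VN replicate 2 highest. Rplp0 rose by 0.82 ± 0.18 (log2, SE) in PG9VN against WT (edgeR adjusted p = 0.0133; 0.55 and 0.00153 without PG9VN replicate 2). Rplp1, an acidic tip protein with the highest WT level per length of all members (459 CPM per kilobase), stood at 227, 227 and 233 CPM in WT, 342, 339 and 257 in PG9V, and 300, 557 and 352 in PG9VN. It rose by 0.82 ± 0.21 (adjusted p = 0.0291; 0.51 and 0.0140 without PG9VN replicate 2). Its partner Rplp2 rose by 0.64 ± 0.17 (adjusted p = 0.0277; 0.39 and 0.0092 without PG9VN replicate 2), from 89.6 ± 0.945 to 139 ± 37.5 CPM.

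Other large subunit genes were higher as well. Rpl10a, which sits in the mobile L1 stalk beside the exit site, stood at 41.5, 45.2 and 49.0 CPM in WT, 70.8, 65.2 and 57.8 in PG9V, and 60.6, 100 and 83.4 in PG9VN. Its groups with and without mutation did not overlap, and it had the lowest adjusted p of the members in PG9VN against WT (0.85 ± 0.17, edgeR adjusted p = 0.00861). The copy Rpl10a-ps1, 100% identical where aligned, held 49.4% of the reads on both. With that copy added Rpl10a was at 0.62 ± 0.14 (edgeR adjusted p = 0.0137), which was no longer the lowest. Rpl3, which lines the peptidyl transferase centre, had the highest summed count level of the large subunit members at 381, 375 and 402 CPM in WT and rose by 0.44 ± 0.11 to 463, 588 and 520 in PG9VN (adjusted p = 0.0217), the smallest fold among the called members. Rpl41, a very short basic peptide, rose from 198 ± 1.92 to 328 ± 97.6 CPM (0.73 ± 0.19, adjusted p = 0.026), and Rpl13a, known also as a translational silencer of inflammatory messages, from 271 ± 6.80 to 423 ± 124 (0.64 ± 0.18, adjusted p = 0.0369). Leaving out PG9VN replicate 2 gave fold changes of 0.67 for Rpl10a, 0.35 for Rpl3, 0.46 for Rpl41 and 0.37 for Rpl13a, with adjusted p of 0.00849, 0.0154, 0.00927 and 0.0126 by edgeR.

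By their own rows the largest rise was that of a small subunit gene, Rps20, close to that of Rpl10a (0.87 ± 0.19 and 0.85 ± 0.17). With copies added Rps12 was highest at 1.09, and Rps20 was at 0.85. Rps20, a protein of the small subunit head, stood at 62.2, 62.5 and 65.9 CPM in WT, 91.7, 94.3 and 79.2 in PG9V, and 87.2, 157 and 103 in PG9VN. No mutant library reached down to the WT range. Rps20 rose by 0.87 ± 0.19 in PG9VN against WT (edgeR adjusted p = 0.0133), and by 0.58 (adjusted p = 0.00218) without PG9VN replicate 2. Rps16 and Rps18, also of the head, both rose by 0.81, with SEs of 0.19 and 0.18 (adjusted p = 0.0168 and 0.0157), and the zinc-binding Rps29 rose by 0.81 ± 0.20 (adjusted p = 0.0239). Rpsa, the laminin receptor precursor that docks on the small subunit, went from 288 ± 5.52 to 425 ± 92.4 CPM (0.56 ± 0.15, adjusted p = 0.0319). Fold changes without PG9VN replicate 2 were 0.53 for Rps16, 0.52 for Rps18, 0.52 for Rps29 and 0.37 for Rpsa, and all of these passed the test (adjusted p = 0.00343, 0.00114, 0.0110 and 0.0186 by edgeR). Copies held 43.3% of the reads on Rps16 and its copies. With them added Rps16 was at 0.73 ± 0.18 in PG9VN against WT (edgeR adjusted p = 0.0234).

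Several members are known for roles beside protein synthesis or for mutant phenotypes. Rpl11, which joins Rpl5 and a short ribosomal RNA in the particle that binds Mdm2, stood at 130, 132 and 134 CPM in WT, 171, 172 and 146 in PG9V, and 155, 253 and 172 in PG9VN, and rose by 0.55 ± 0.17 (edgeR adjusted p = 0.0468). Rpl5 was at 0.47 ± 0.16 (adjusted p = 0.0691) and did not pass the test. Rpl10, which enters late in large subunit assembly, rose by 0.48 ± 0.11 (adjusted p = 0.0167), but stood at -0.058 with its most abundant transcript only, and copies held 60.8% of the reads on Rpl10 and its copies. Rpl22, which in mouse T cells is needed for normal development, rose by 0.58 ± 0.16 (adjusted p = 0.034). Rps27a, translated as a fusion with ubiquitin, was at 0.56 ± 0.18 (adjusted p = 0.0586), and Rpl38, whose loss in mice alters translation of Hox messages, at 0.49 ± 0.19 (adjusted p = 0.111). Without PG9VN replicate 2, Rpl11 was at 0.31, Rpl10 at 0.34, Rpl22 at 0.34 and Rps27a at 0.29, all past the test (edgeR adjusted p = 0.0247, 0.00849, 0.00783 and 0.0336). Rpl5 was then at 0.24 and Rpl38 at 0.18, and neither passed (adjusted p = 0.0747 and 0.119).

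A few members had small differences in their own rows. Rps6, the substrate of the S6 kinases, stood at 188, 174 and 181 CPM in WT, 184, 229 and 186 in PG9V, and 187, 285 and 182 in PG9VN. Its PG9VN libraries overlapped WT except for replicate 2. Its fold change was 0.26 ± 0.17 (edgeR adjusted p = 0.324), and 0.02 without PG9VN replicate 2. Copies held 18.3% of the reads on Rps6 and its copies. With them added Rps6 stood at 212, 205 and 202 CPM in WT, 241, 287 and 224 in PG9V, and 238, 346 and 245 in PG9VN. All mutant libraries were then above all WT libraries, at 0.42 ± 0.15 in PG9VN against WT (edgeR adjusted p = 0.0883). Rps15a was at 0.21 ± 0.10 (adjusted p = 0.179) and turned to -0.26 when only its most abundant transcript was used, and Rpl9 was at 0.32 ± 0.13 (adjusted p = 0.133). With PG9VN replicate 2 left out Rps15a was at 0.096 and Rpl9 at 0.13.

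The genes that the symbol rule admits under paralog or partner names were also near the low end, apart from Rpl37rt. Rpl22l1, the paralog of Rpl22, stood at 34.1, 33.9 and 35.8 CPM in WT, 34.6, 40.9 and 34.7 in PG9V, and 37.7, 44.2 and 39.3 in PG9VN (0.22 ± 0.095, edgeR adjusted p = 0.133). Rpl7l1, a paralog of Rpl7, was at 0.23 ± 0.10 (adjusted p = 0.158), Rps19bp1, which binds Rps19, at 0.33 ± 0.15 (adjusted p = 0.178), and Rps12l1 at 0.25 ± 0.40 (adjusted p = 0.708). Rpl37rt was at 0.56 ± 0.20 (adjusted p = 0.0822). With PG9VN replicate 2 left out Rpl22l1 was at 0.15, Rpl7l1 at 0.11, Rps19bp1 at 0.15, Rps12l1 at 0.069 and Rpl37rt at 0.31. None of these 5 passed the test in PG9VN against WT, and whether they differ from the other members was not tested.

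PG9VN replicate 2 was the library in which every one of the 81 members had its highest level. There the members lay a median of 0.98 log2 units above their WT means, against 0.28 and 0.41 in PG9VN replicates 1 and 3 and 0.33, 0.44 and 0.16 in PG9V replicates 1 to 3. All 81 members lay above all WT libraries in it, as did 42.2% of all genes. Its distance from the mean of the other PG9VN libraries had a median of 0.63 for the members and -0.01 for all genes. After Rps2 and Rpl21, which are described with their copies, Rps14 was farthest up at 0.92, with 158, 312 and 171 CPM in PG9VN. The smallest distances were those of Rpl22l1 at 0.20, Rpl3 at 0.26 and Rps15a at 0.30.

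Markers of other cell types moved with this library and with the genotypes. Oligodendrocyte markers summed to 15299 CPM in PG9VN replicate 2, to 9728 and 6537 in replicates 1 and 3, and to 7600 to 10138 in WT, and 0 of 8 were called in PG9VN against WT. In WT, PG9V and PG9VN microglia markers summed to 388 to 445, 681 to 987 and 1338 to 1780 CPM, with 9 of 10 called higher in PG9VN against WT. Markers of activated phagocytes summed to 43.8 to 46.5, 409 to 1058 and 2079 to 3377 CPM, with 8 of 8 higher, and PG9VN replicate 2 was the highest library for both lists. Astrocyte markers summed to 4359 to 4659, 6004 to 6858 and 7560 to 9371 CPM, with 6 of 8 higher, and neuron markers to 4246 to 4522, 3485 to 3761 and 2377 to 4072 CPM, with 3 of 8 lower (7 of 8 without PG9VN replicate 2). Of all genes tested in PG9VN against WT, 11.5% were called higher and 7.22% lower, and 13.4% and 11.4% without PG9VN replicate 2. The part of these cell types in the ribosomal protein result was not tested, and in bulk tissue more cells of a type and more RNA per cell cannot be told apart.

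**Figure D3:**
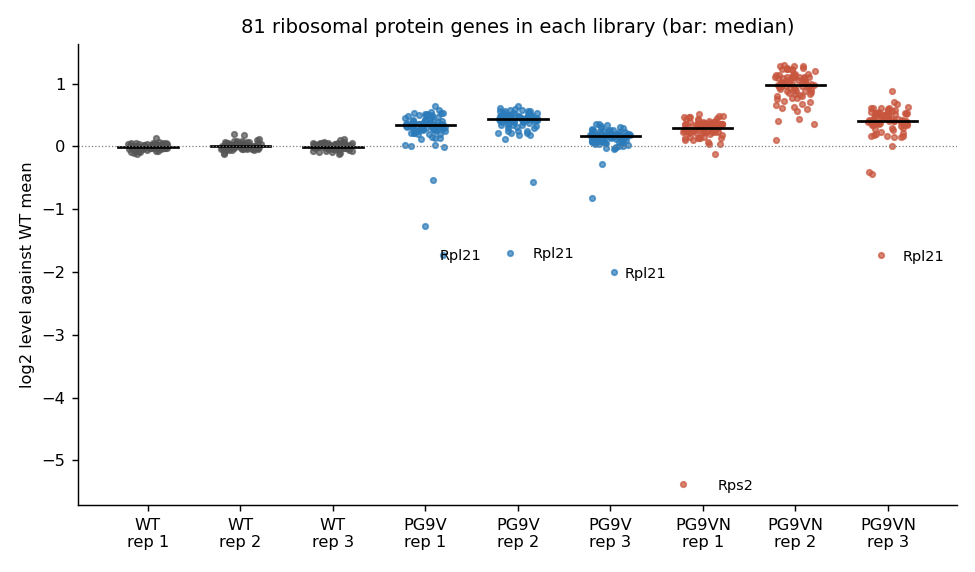
Log2 level of each ribosomal protein gene against its WT mean (y axis) in each library (x axis), 1 point a gene, with the median as a bar. The median is 0.98 in PG9VN replicate 2, 0.16 to 0.44 in the PG9V libraries and 0.28 and 0.41 in the other PG9VN libraries; Rps2 in PG9VN replicate 1 and Rpl21 in PG9V and PG9VN replicate 3 lie far below 0.

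In PG9V against WT most members were shifted upward without passing the test. By edgeR 0 of 81 members passed the adjusted threshold in either direction, against a background of 1.62% of genes with a positive and 0.149% with a negative call. The unadjusted threshold of 0.05 gave 18 higher (8.97% of all genes) and 1 lower (5.18%), DESeq2 called 1, which was Rpl21 and lower, and limma-voom called 0. The members' median log2 fold change was 0.31 against 0.01 for all genes, and for 67 members all PG9V libraries lay above all WT libraries, as for 16.5% of all genes. For 2 members, Rps2 and Rpl21, all PG9V libraries lay below WT, as for 13.2% of all genes. The genotypes share 1 estimate of the spread in this fit. Without PG9VN replicate 2, 25 members were higher and 0 lower in PG9V against WT (3.51% and 1.53% of all genes), with 68 higher and 1 lower at the unadjusted threshold (12.5% and 11.2%) and a median of 0.30. Without PG9VN replicate 3, 0 were higher and 1 was lower.

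The members with the smallest p in that comparison, after Rpl21, were Rpl10a, Rpl3, Rps16 and Rpl36. Rpl10a was at 0.51 ± 0.17 (edgeR adjusted p = 0.204; 0.0552 without PG9VN replicate 2) and Rpl3 at 0.32 ± 0.11 (0.223; 0.051). With its copy added Rpl10a was at 0.28 ± 0.14 (edgeR adjusted p = 0.397). Rps16 stood at 55.9, 56.3 and 53.2 CPM in WT and 78.6, 84.8 and 66.8 in PG9V, with no overlap. Its fold change was 0.48 ± 0.18 (adjusted p = 0.288; 0.0174 without PG9VN replicate 2), and that of the large subunit gene Rpl36 was 0.48 ± 0.19 (0.295; 0.0165). With its copies added Rps16 was at 0.43 ± 0.18 (edgeR adjusted p = 0.333). PG9V replicate 3, in which cerebellum markers summed to 445 CPM against 119 and 142 in the other PG9V libraries, was the lowest PG9V library for the members, at a median of 0.16 over WT.

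PG9VN and PG9V libraries overlapped for most members. By edgeR 0 of 81 members passed in either direction (2.72% of all genes higher and 0.667% lower), DESeq2 called 1 higher, Rpl21, and limma-voom 0. The unadjusted threshold gave 5 higher (9.94%) and 0 lower (6.17%). Without PG9VN replicate 1 or 3 edgeR called 1 higher. The median log2 fold change was 0.30 with PG9VN replicate 2 and 0.06 without it, and the libraries were apart, with PG9VN higher, for 4 members, as for 12.2% of all genes, and with PG9VN lower for 0, as for 8.93%. Without PG9VN replicate 2, 0 members were called (4.23% of all genes higher and 2.12% lower), with 2 higher (12.4%) and 0 lower (10.2%) at the unadjusted threshold. Rps18, at 122, 119 and 110 CPM in PG9V and 128, 219 and 136 in PG9VN, had a fold change of 0.46 ± 0.18 (edgeR adjusted p = 0.246). Rpl35, near the exit of the peptide tunnel, was at 0.39 ± 0.17 (adjusted p = 0.304), Rps28 at 0.36 ± 0.16 (adjusted p = 0.298) and Rpl27 at 0.39 ± 0.15 (adjusted p = 0.24). These were 0.18 without PG9VN replicate 2 for Rps18, 0.14 for Rpl35, 0.15 for Rps28 and 0.23 for Rpl27. The comparisons with WT share the same 3 WT libraries, so their values are given side by side only.

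Short length goes with these values. Ribosomal protein transcripts had lengths from 344 to 3268 bases, weighted by counts, with a median of 740 against 2787 for all genes, and with all tested genes cut into 10 groups by length, 65 members fell in the shortest group. Among all genes in that group the median log2 fold change of PG9VN against WT was 0.25, and it ran down to -0.25 in the longest group. In PG9V against WT it ran from 0.15 to -0.15, and in PG9VN replicate 2 against the other PG9VN libraries from 0.26 to -0.25. Without PG9VN replicate 2 the medians of all genes in PG9VN against WT ran from 0.15 to -0.19, and the 65 members of the shortest group were at 0.37. With all libraries the 65 members had medians of 0.64, 0.31 and 0.66 in these comparisons. With the trend on length removed from each library, 35 members were higher and 0 lower in PG9VN against WT, with a median of 0.40. That fit shifts all genes, and its share of all genes called is not given here.

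**Figure D4:**
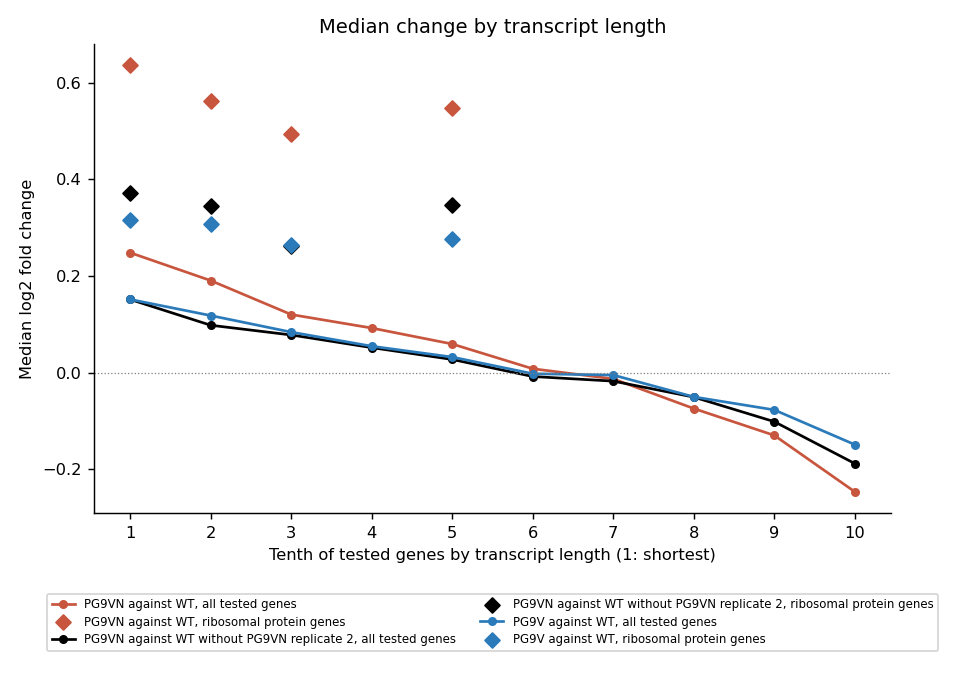
Median log2 fold change (y axis) in 10 equal groups of tested genes ordered by transcript length (x axis), as lines for all genes and as diamonds for ribosomal protein genes where a group holds at least 2 of them. In PG9VN against WT the line falls from 0.25 to -0.25, and the diamond of the shortest group is at 0.64.

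Rps2 and Rpl21 ran against the other members, and each has annotated copies whose counts differed between libraries. Rps2, a small subunit protein at the entry of the message channel, stood at 203, 201 and 207 CPM in WT, 140, 137 and 115 in PG9V, and 4.4, 219 and 150 in PG9VN. The PG9V libraries lay below WT, and the PG9VN libraries ran from near 0 to above WT. Its fold change was -0.71 ± 0.90 (edgeR adjusted p = 0.631), and -1.40 without PG9VN replicate 2. The processed pseudogene Rps2-ps13, on chromosome X, was at 0, 0 and 0.23 CPM in WT, 149, 143 and 135 in PG9V, and 285, 226 and 164 in PG9VN, so it was high in every mutant library and at or near 0 in WT. Of the reads on Rps2, Rps2-ps13 and Rps2-ps10, the copies took 0.158% to 0.505% in WT, 55.1% to 57.8% in PG9V, and 98.8%, 55.3% and 56.1% in PG9VN.

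The sequences show how little separates the copies. In the GENCODE transcripts of GRCm38 the coding sequences of Rps2, on chromosome 17, and Rps2-ps13 differ at 7 of 882 positions, counted from the A of the start codon: T60A, A84G, T204C, G300A, C444T, C453A and T756C. Positions 50 to 89 are shown, with the differing bases in capitals.
Rps2: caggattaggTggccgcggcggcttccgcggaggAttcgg
Rps2-ps13: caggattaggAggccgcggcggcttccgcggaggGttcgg

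With near-identical copies added, a setting chosen after the data had been seen, Rps2 stood at 206, 204 and 210 CPM in WT, 317, 308 and 276 in PG9V, and 356, 496 and 346 in PG9VN. The groups of both mutants then lay above WT like most members. Rps2 with its copies was 0.95 ± 0.14 higher in PG9VN than in WT (edgeR adjusted p = 0.00192) and at 0.54 ± 0.14 in PG9V against WT (adjusted p = 0.11). Which locus the reads came from cannot be read from the summed counts.

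Rpl21, a large subunit protein, stood at 210, 206 and 216 CPM in WT, 63.1, 64.7 and 52.0 in PG9V, and 241, 386 and 62.9 in PG9VN. PG9V and PG9VN replicate 3 were low, and the other PG9VN libraries were above WT. In PG9V against WT its fold change was -1.81 ± 0.51 (edgeR adjusted p = 0.152), and in PG9VN against WT 0.13 ± 0.49 (adjusted p = 0.886), which turned to -0.47 without PG9VN replicate 2. The pseudogenes Gm10163, Gm10240 and Gm13370 together took 0.921% to 1.78% of the reads on the 4 loci in WT, 68.6% to 71.4% in PG9V, and 3.23%, 0.731% and 70.1% in PG9VN. With all near-identical copies added, Rpl21 stood at 217, 216 and 223 CPM in WT, 205, 232 and 185 in PG9V, and 256, 394 and 216 in PG9VN. PG9VN was then at 0.40 ± 0.20 against WT (adjusted p = 0.189) and PG9V at -0.07 ± 0.20 (adjusted p = 0.915), with overlap of PG9V and WT.

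Rpl21, on chromosome 5, and Gm10163, on chromosome 9, differ by T336C and T432C over the 481 coding bases that align. Positions 302 to 341 hold the first of these.
Rpl21: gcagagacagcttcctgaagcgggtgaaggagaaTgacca
Gm10163: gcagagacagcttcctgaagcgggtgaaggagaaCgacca

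**Figure D5:**
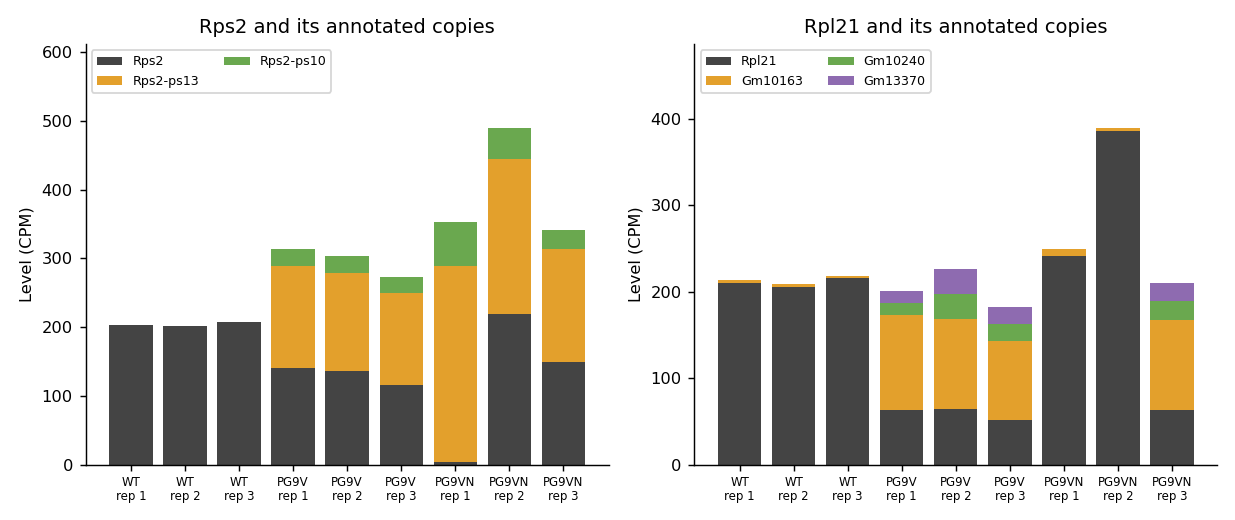
Level in CPM (y axes, from 0) of Rps2 and of Rpl21 in each library (x axes), stacked with the annotated copies named in the legends. Rps2 copies fill 55.1% to 98.8% of the bars in the mutant libraries and under 1% in WT, and Rpl21 copies fill 68.6% to 71.4% in PG9V and PG9VN replicate 3.

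Copies also hold most of the reads of some members in every library. A search for transcripts of other genes at 95% identity or more over at least 80% of their length found 487 copies of 73 members, of which 27 had a mean of at least 200 counts. The copies held a mean of 51239 counts a library against 353100 for the members, and for 21 members over 10% of the sum. Rpl12, Rpl27, Rpl5 and Rps12 had 92.1%, 91.6%, 88.7% and 86.3% of the sum on copies. Gm15500 has the whole coding sequence of Rpl5 with 0 substitutions in 894 bases, and took 87.3% to 89.6% of the reads of the pair in all 9 libraries, so that pair did not switch between genotypes. Gm10275 matches Rpl12 over all 498 coding bases and took 90.5% to 93.4%. The level of such a member is therefore a level of its row in the table, and the order of levels per length holds only for members with few reads on copies.

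With copies added, 54 of 81 members were higher in PG9VN than in WT and 0 lower, with a median of 0.63 (edgeR). The share of all genes called in that fit is not given here. Rpl5 with its copies went from 198 ± 0.821 to 290 ± 76.1 CPM (0.55 ± 0.17, adjusted p = 0.0532), and Rpl12 from 120 ± 2.48 to 222 ± 65.9 (0.89 ± 0.18, adjusted p = 0.00901). Rps12, named after its values were seen, had the largest difference of these 4. With copies it stood at 78.5, 87.9 and 77.0 CPM in WT, 137, 136 and 111 in PG9V, and 126, 223 and 169 in PG9VN, and its fold change in PG9VN against WT was 1.09 ± 0.19 (adjusted p = 0.00451) against 0.57 ± 0.24 for the Rps12 row alone.

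By length-scaled level in WT, Rplp1 was followed by Rpl41 and Rpl13a at 394 CPM per kilobase each, Rps24 at 390 and Rps15 at 384, and the members' median was 153. Rps24 and Rps15 were at 0.55 ± 0.17 and 0.64 ± 0.21 in PG9VN against WT (edgeR adjusted p = 0.0575 and 0.0649), and at 0.31 and 0.32 without PG9VN replicate 2. The lowest levels per length were those of Rpl12 at 7.30, Rpl27 at 8.88 and Rps19bp1 at 12.1 CPM per kilobase, the first 2 being members with most reads on copies.

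Other genes of translation are given from lists, whose counts in PG9VN against WT stand beside 11.5% of all genes called higher and 7.22% lower. Of the ribosomal proteins outside the symbol rule, the scaffold Rack1 stood at 115, 120 and 118 CPM in WT, 153, 157 and 132 in PG9V, and 152, 235 and 175 in PG9VN, and rose by 0.67 ± 0.15 (edgeR adjusted p = 0.0142). Fau, a fusion of a ubiquitin-like protein to Rps30, was at 0.62 ± 0.24 (adjusted p = 0.108). Of the paralogs that end in l, Rps27l, which is also a p53 target, rose by 0.93 ± 0.20 (adjusted p = 0.012), from 7.25 ± 0.435 to 13.9 ± 3.77 CPM. Among 19 further messages known to begin with a pyrimidine tract 4 rose and 0 fell in PG9VN against WT (median 0.27, and 0.15 without PG9VN replicate 2). They included the elongation factor Eef1a1 (0.57 ± 0.11, adjusted p = 0.00748) and the poly(A)-binding protein Pabpc1 (0.58 ± 0.09, adjusted p = 0.00252).

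Counts for the other translation lists in PG9VN against WT stand beside 11.5% of all genes called higher and 7.22% lower. Whether any of these lists differs from all genes was not tested. Of 11 elongation genes 1 rose, Eef1a1, and 1 fell, Eif5a2 (-0.90 ± 0.14, edgeR adjusted p = 0.00276), with a median of 0.13 (0.013 without PG9VN replicate 2). Of 36 initiation genes 1 rose, Eif3f (0.43 ± 0.12, adjusted p = 0.0375), and 2 fell, among them Eif1ax (-0.35 ± 0.10, adjusted p = 0.0457), with a median of 0.12, which turned to -0.015 without PG9VN replicate 2. Of 49 ribosome biogenesis genes, which process ribosomal RNA and assemble subunits, 1 rose and 1 fell, with a median of 0.10 (0.039 without PG9VN replicate 2): Nhp2 at 0.57 ± 0.16 (adjusted p = 0.0377) and Wdr12 at -0.30 ± 0.08 (adjusted p = 0.0298). Of 25 genes of mTOR, Myc and S6 kinase signalling 3 rose and 1 fell, with a median of -0.07, and without PG9VN replicate 2 3 rose and 2 fell, with a median of -0.0065. Myc, which drives ribosome production, rose from 3.94 ± 0.479 to 6.62 ± 0.438 CPM (0.75 ± 0.15, edgeR adjusted p = 0.0103). Eif4ebp1, which represses the cap-binding protein Eif4e and is inactivated by mTOR, rose by 0.77 ± 0.18 (edgeR adjusted p = 0.0196).

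Mitochondrial ribosomal proteins and respiratory chain subunits are given for comparison, without matching for length or level. In WT they summed to 1893 to 1939 CPM over 76 genes and to 7401 to 7588 CPM over 69 genes. Of 76 mitochondrial ribosomal protein genes 3 rose and 1 fell in PG9VN against WT, with a median of 0.10, among them Mrps6 (0.83 ± 0.17, edgeR adjusted p = 0.011) and Mrpl3 (-0.33 ± 0.06, adjusted p = 0.00701). Of 69 nuclear respiratory chain genes 3 rose and 1 fell, with a median of 0.16. In PG9VN replicate 2 these lists averaged 0.35 and 0.54 log2 units above the WT mean, against 0.00 and -0.01 for mitochondrial ribosomal proteins and -0.02 and -0.07 for the respiratory chain in PG9VN replicates 1 and 3. Without that library the respiratory chain list gave 2 higher and 7 lower, with a median of -0.06, and the mitochondrial ribosomal list 3 higher and 3 lower, with a median of -0.012. Over all genes 11.5% were called higher and 7.22% lower with all libraries, and 13.4% and 11.4% without PG9VN replicate 2. Whether the cytosolic members differ from these lists was not tested.

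Of 18 genes of the p53 response 7 rose and 1 fell in PG9VN against WT, with a median of 0.36 (without PG9VN replicate 2 also 7 and 1, with a median of 0.25), where 11.5% of all genes were called higher and 7.22% lower. Gtse1, a p53-binding protein of the cell cycle, rose from 0.512 ± 0.0662 to 1.80 ± 0.253 CPM (1.81 ± 0.23, edgeR adjusted p = 7.67e-04), and Bbc3, which promotes apoptosis, from 4.54 ± 0.520 to 10.5 ± 1.33 (1.21 ± 0.15, adjusted p = 7.69e-04). Their link with the ribosomal protein genes was not tested.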

How the data were processed

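The authors deposited estimated counts per transcript for 105129 transcripts in 9 libraries, of which 59.6% of values were not whole. Per the submitters' processing notes kallisto 0.43.1, HISAT2 2.0.5, FastQC and Trimmomatic 0.33 were used on build mm39, and the sources used here do not say which of them made the counts. Estimated counts were summed per gene through symbols and rounded, where a test on gene counts had been planned. GENCODE transcripts of GRCm38 gave names and lengths and matched 98.6% of transcripts, and 4 transcripts with symbols turned into dates were left out.

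Tests used edgeR 4.0.16 in R 4.3.3 (TMM, filterByExpr, robust quasi-likelihood fit over all 9 libraries, 1 coefficient per genotype), with Benjamini-Hochberg adjustment over the 17398 genes tested at 0.05. Levels against the WT mean used log2(CPM + 0.5). Copies were found with blastn 2.17.0 (at least 150 aligned bases), and promoters come from RefSeq. Alternatives were DESeq2 1.42.0, limma-voom 3.58.1, other scalings, no filter, other libraries, a length trend and added copies. Each library is a separate mouse.

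Members, lists and alternatives were chosen with earlier results of these data known. Named members were Rplp0, Rplp1, Rplp2, Rpsa, 8 with known roles, the 8 largest and 8 smallest fold changes in PG9VN against WT, the 5 smallest p in each other comparison, the 5 highest levels per length, the 3 nearest to and the 3 farthest from the other PG9VN libraries in PG9VN replicate 2, paralog names and those at the count limit. From each list up to 2 genes with the smallest p were named. A member that this rule names is not reported here by name, though it is in all counts and medians.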

Additional observations from a re-analysis of the deposited data

How the results depend on the processing

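The count of members higher in PG9VN than in WT (51) was 9 with only the libraries of these genotypes, 27 with Y-linked counts as a term and 0 in the 7 libraries with Y-linked counts, and 2 to 70 when 1 library was left out. It was 35 to 65 under the other alternatives, with 0 lower in each. In PG9V against WT (0) it was 1 with DESeq2, 21 with only these genotypes (19 higher, 2 lower) and 0 to 25 with 1 library left out, the 25 without PG9VN replicate 2. In PG9VN against PG9V (0) it was 1 with DESeq2 and 0 to 1 with 1 library left out. Fits with libraries left out also held fewer of them, and the cause of these moves was not tested. Among these alternatives, shares of all genes called are given above only for the fit without PG9VN replicate 2.

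The difference in summed level kept its sign everywhere, at 0.31 to 0.68 log2 units, 0.21 to 0.35 and 0.05 to 0.42 in the 3 comparisons with 1 library left out. The large to small ratio ranged from 0.011 to 0.051 likewise, and turned to -0.050 with -ps rows added and -0.034 with all copies added. Signs in PG9VN against WT also turned for Rpl21 (-0.22 with limma-voom, -0.083 with the length trend removed, -0.47 to 0.58 with 1 library left out, the lowest without PG9VN replicate 2), Rps2 (0.95 with -ps rows or all copies added), Rps15a (-0.26) and Rpl10 (-0.058), the last 2 with the most abundant transcript only. Copies limit these values, since reads shared by near-identical transcripts cannot be placed.

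No paired analysis was possible because replicate numbers were given in accession order and pair nothing.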
